A study of Mus musculus with 60 samples.

Results

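This section describes how wild-type CD8 T cells changed in the first 2 h after stimulation. It compares 5 libraries of cells collected 2 h after stimulation with 5 libraries of cells collected at 0 h, 10 libraries of the 60 in the series. They were chosen by genotype, time point and library number: numbers 1 to 5 at 0 h and 11 to 15 at 2 h, which belong to 1 run of library numbers, called set A here. All 10 were made from CD8 T cells of the spleen, from mice on the NOD background, which is prone to autoimmune diabetes. The cells carried the OT-I T cell receptor transgene, which recognises an ovalbumin peptide, and both Sh2b3 alleles were intact. Naive cells were purified by negative selection. The protocol names plate-bound anti-CD3 at 10 µg/mL with soluble anti-CD28 at 5 µg/mL, written for a longer stimulation, and the treatment label of the 2 h libraries reads none. No unstimulated culture was sampled at 2 h, so stimulation, plating, culture and time since isolation cannot be told apart. Nothing in the labels ties replicates to separate mice, so p-values measure the spread between these samples, which may be technical. For comparison the text also uses 5 wild-type libraries at 6 h, 5 Sh2b3-/- libraries at 0 h and 5 at 2 h, all of set A, and 6 wild-type 0 h libraries of 2 other runs of numbers, sets B and C.

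A T cell receptor bound by antibody signals through LCK and ZAP70 to calcium and NFAT, to RAS and the ERK kinases, and to PKC-theta and NF-kB. CD28 adds to the NF-kB and PI3K branches. The first genes to respond are primary response genes, whose transcription needs no new protein, such as those for the FOS, JUN, EGR and NR4A factors. Their transcripts are short-lived, so levels fall soon after transcription stops. Genes for cytokines, cytokine receptors and growth follow, and genes of the naive state are switched off.

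Total counts ran from 17167684 to 22173769 reads at 0 h (mean 18463254, SD 2094521) and from 14224604 to 17118101 reads at 2 h (mean 16122173, SD 1164886). Levels are in CPM, counts scaled to the library's total with TMM, and are shares of a library: a transcript can fall in CPM while its amount per cell does not. Where a gene is said to rise or fall by a number without a unit, that number is a log2 change. In bulk RNA, fewer cells of a type and less RNA per cell cannot be told apart. Over the 500 most variable genes, 86.6% of the variance lay along component 1, which separated 0 h from 2 h, and 2.99% along component 2. All 10 CD8 T cell markers were detected in every library, which fits the label but does not by itself exclude other cells. Their summed level was 7045 to 7725 CPM at 0 h and 3206 to 3517 CPM at 2 h. Markers of neutrophils summed to at most 1.23 CPM. Those of B cells summed to 829 to 959 CPM at 0 h and those of gamma delta T cells to 431 to 531 CPM.

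The response was broad in both directions. Of 12669 genes tested with edgeR, 8308 (65.6%) passed an adjusted p of 0.05. Of all genes tested 4034 (31.8%) were higher at 2 h and 4274 (33.7%) lower. A change of at least 2-fold was seen for 1133 called genes upward (8.94%) and for 1800 downward (14.2%). Changes of at least 4-fold numbered 299 upward and 475 downward, and those of at least 32-fold 24 and 10. Genes at least 2-fold higher took 2.81 ± 0.081% of reads (SD, n = 5) at 0 h and 8.65 ± 0.25% at 2 h, while those at least 2-fold lower took 11.8 ± 0.56% and 4.03 ± 0.27%. For 6408 genes (50.6%) the values of the 5 libraries at 0 h and the 5 at 2 h did not overlap. The median log2 change over all tested genes was −0.04. It lay between −0.14 and 0.00 with other scalings, filters, tests and choices of libraries. Since nearly 2 in 3 genes passed the test, the counts for gene groups below are read against these shares.

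**Figure D1:**
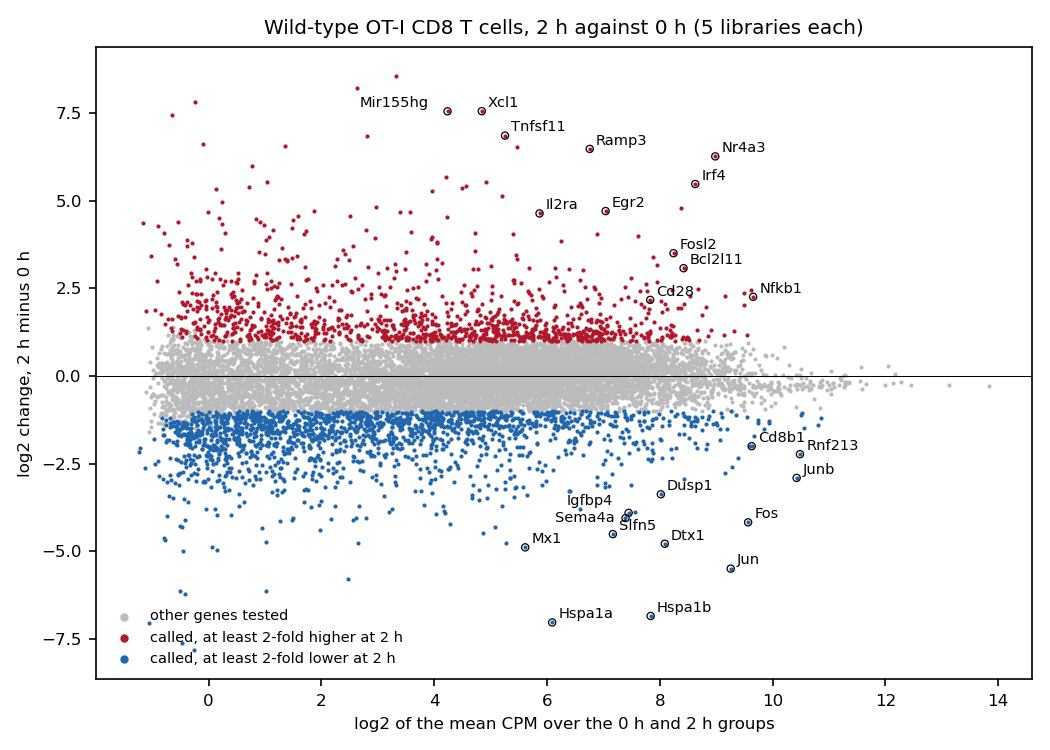
Each point is a gene, with the log2 of its mean CPM over the 0 h and 2 h groups on the x axis and its log2 change from 0 h to 2 h on the y axis (5 libraries a group). Red points are the 1133 called genes at least 2-fold higher at 2 h and blue points the 1800 at least 2-fold lower. Named points at the edges include Nr4a3 at 6.27, Irf4 at 5.48, Jun at −5.50 and Dtx1 at −4.78.

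The NR4A orphan nuclear receptors, widely used as reporters of T cell receptor signalling, all rose. Nr4a3 (ENSMUSG00000028341) was at 10.4, 15.3, 11.4, 16 and 11.3 CPM in the 5 libraries at 0 h and at 1346, 787, 946, 917 and 1003 CPM in those at 2 h. The groups lie far apart, and no library is intermediate. The log2 change of Nr4a3 was 6.27 ± 0.18 (SE, adjusted p = 6.2e-12). Among called genes, with predicted genes, pseudogenes and receptor segments left out, only Nr4a1 and Nfkb1 gained more in CPM. Nr4a2 went from 23.1 ± 5.69 to 369 ± 76.9 CPM (SD, n = 5 each), a log2 change of 3.99 ± 0.21 (SE). Nr4a1, already at 241 ± 72.7 CPM at 0 h, reached 1335 ± 220 CPM. At 6 h Nr4a3 was back to 560 ± 123 CPM, called lower than at 2 h (log2 −0.84 ± 0.17, adjusted p = 0.0019). The share of all genes called lower between 2 and 6 h was 23.7%, and 23.6% were called higher. That split depended on scaling, since 49.9% of the calls were higher with TMM and 69.2% with library totals alone.

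All 5 tested members of the EGR and NAB list also rose. Egr2 (ENSMUSG00000037868), a zinc finger factor of both activation and tolerance, was at 7.53, 10.7, 10.0, 10.9 and 8.99 CPM at 0 h and at 315, 181, 247, 263 and 262 CPM at 2 h. Every 2 h library is above every 0 h library by more than 10 times. The log2 change of Egr2 was 4.71 ± 0.15 (SE, adjusted p = 6.2e-13), next to 4.80 ± 0.19 for Egr3 and 1.98 ± 0.18 for Egr1. Egr1, the founding member, started at 183 ± 42.4 CPM, so its smaller change began from a higher base. The corepressors that EGR factors induce and that bind them rose less, Nab2 by 1.33 ± 0.22 and Nab1 by 0.55 ± 0.07. Egr4 was too low to be tested.

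AP-1, the dimer of FOS and JUN family proteins, split into members that rose and members that fell. Of 12 tested AP-1 and ATF factors 5 rose and 6 fell. Fos (ENSMUSG00000021250) was at 772, 1500, 967, 1965 and 1978 CPM at 0 h and at 87.0, 77.3, 63.1, 83.7 and 89.3 CPM at 2 h. Jun went from 633, 1243, 907, 1590 and 1613 CPM to 23.1, 21.9, 25.6, 34.4 and 28.3 CPM. Replicates 1 and 3 were lowest and 4 and 5 highest for both genes at 0 h, whereas the 2 h libraries were close together. The log2 changes were −4.17 ± 0.32 (SE, adjusted p = 3.0e-06) for Fos and −5.50 ± 0.33 (adjusted p = 5.3e-07) for Jun. Fosb fell from a range of 164 to 535 CPM to one of 19.6 to 30.3 CPM, Junb from 2427 ± 648 to 326 ± 65.6 CPM, and Jund from 439 to 88.0 CPM (log2 −2.33).

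The members that rose were Fosl2, Atf3, Fosl1, Mafg and Batf. Fosl2, a FOS relative that lacks a strong activation domain, went from a range of 44.6 to 60.5 CPM to one of 514 to 609 CPM, a log2 change of 3.51 ± 0.09 (SE). Atf3, a stress-induced repressor, went from 1.30 ± 0.912 to 22.8 ± 6.25 CPM, and Mafg from 17.2 ± 2.44 to 64.7 ± 8.77 CPM. Batf, which pairs with JUN proteins and IRF4, rose by 0.65 on the log2 scale, from 18.6 to 29.3 CPM. By 6 h Fosl2 stood at 203 ± 27.1 CPM and Jun at 19.4 to 25.9 CPM.

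Other primary response genes mostly fell: of 24 tested, 16 fell and 5 rose, with 7 falling and none rising 2-fold or more. Zfp36, which encodes the mRNA-destabilising protein TTP, went from 1121 ± 273 to 223 ± 37.1 CPM. Ppp1r15a, which encodes the stress phosphatase subunit GADD34, went from 608 ± 122 to 79.7 ± 15.2 CPM, and Klf4, a quiescence factor of CD8 T cells, from 34.2 ± 12.0 to 2.28 ± 0.913 CPM. The rises were those of Kdm6b, Plk3, Btg2, Mcl1 and Per1, the largest 0.95 ± 0.08 (SE) for the histone demethylase gene Kdm6b. This count depended on which 0 h libraries were used: against the 6 of sets B and C, 8 of the 24 fell and 8 rose, with a median of 0.13 in place of −0.64.

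The 0 h levels of these falling genes differed between library sets. Fos averaged 634 CPM in the 6 libraries of sets B and C against 1437 CPM in set A, Jun 541 against 1197 CPM, and Junb 1182 against 2427 CPM. With those 6 as the 0 h group the log2 changes were −3.0 for Fos and −4.35 for Jun, and of the 12 AP-1 and ATF genes 6 rose and 5 fell. The inducible heat shock genes varied most. Hspa1a was at 0.471, 165, 5.98, 347 and 158.04 CPM at 0 h and at 0.492 to 1.91 CPM at 2 h. Hspa1b was at 2.18, 597, 27.3, 1157 and 487 CPM at 0 h and at 1.76 to 7.0 CPM at 2 h. The tests of Hspa1a and Hspa1b passed (adjusted p = 0.0057 and 0.0046), but replicate 1 at 0 h lay below the 2 h range for Hspa1a and within it for Hspa1b. In both genes replicates 1 and 3 were lowest at 0 h, as they were for Fos and Jun. The part of cell isolation and handling in these levels was not tested. Of 29 tested genes of the heat shock and folding list, Hspa1a and Hspa1b included, 14 rose and 7 fell. Besides that pair the co-chaperone genes Dnajb1, Bag3 and Dnajb4 fell by 1.08, 0.97 and 0.83 on the log2 scale and the chaperone genes Hspe1 and Hspa5 by 0.33 and 0.26. Among those rising was Hspa4l, which encodes an HSP110 relative, from 14.6 ± 1.96 to 126 ± 8.30 CPM. With sets B and C as the 0 h group, 18 of the 29 genes of this list rose and 4 fell.

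**Figure D2:**
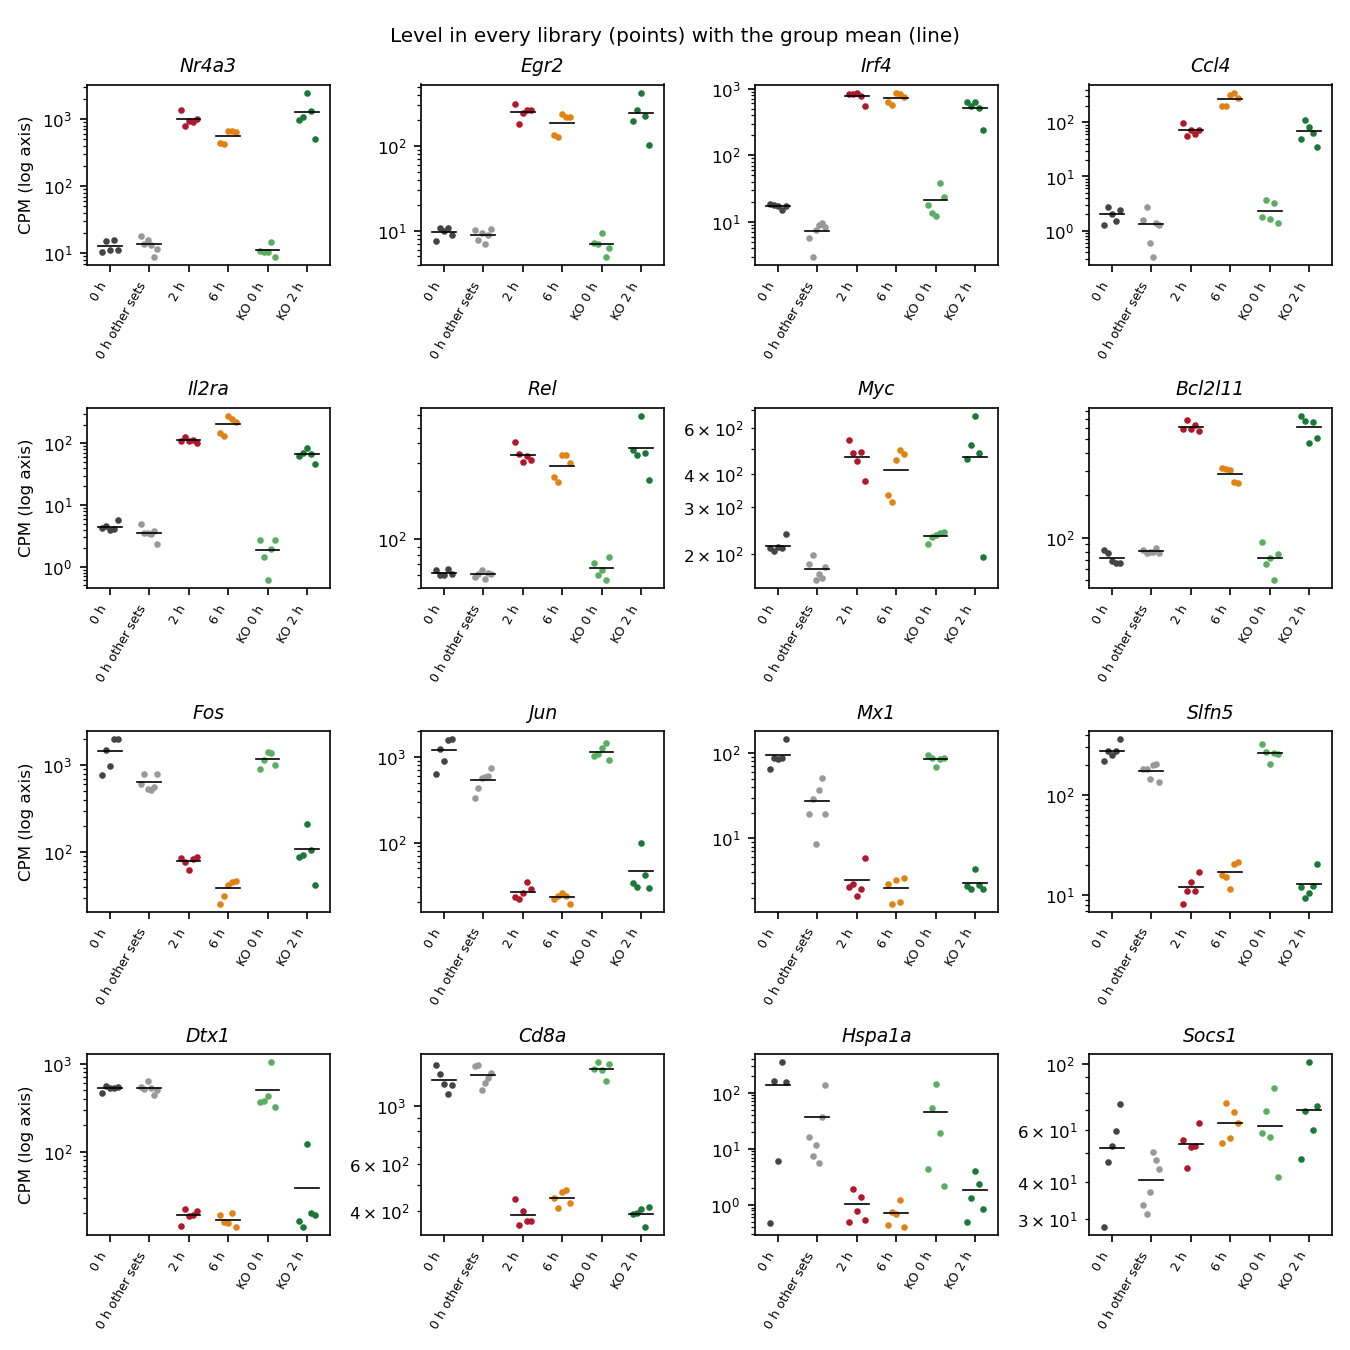
Each panel gives the CPM of 1 gene on a log axis in every library (points) with the group mean (line), for wild-type 0 h of set A, wild-type 0 h of the other sets (B and C), wild-type 2 h and 6 h, and the Sh2b3 knockout (KO) at 0 h and 2 h. Nr4a3, Egr2, Irf4, Ccl4, Il2ra, Rel and Bcl2l11 separate completely between 0 h and 2 h, as do the falling genes Fos, Jun, Mx1, Slfn5, Dtx1 and Cd8a. Hspa1a and Socs1 overlap.

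NF-kB genes rose together. Of 25 tested subunits, inhibitors and targets 20 rose, 16 of them at least 2-fold, and 2 fell, with a median log2 change of 1.13 beside −0.04 for all genes. Among subunits, Rel (c-Rel, needed for IL-2 transcription) was at 64.5, 59.6, 59.9, 65.3 and 60.9 CPM at 0 h and at 404, 340, 303, 331 and 314 CPM at 2 h. The 0 h values are nearly equal, and the lowest 2 h value is over 4 times the highest of them. The log2 change was 2.44 ± 0.08 (SE, adjusted p = 1.2e-17) for Rel, 2.47 ± 0.09 for Nfkb2, 2.26 ± 0.08 for Relb and 2.26 ± 0.07 for Nfkb1, while Rela, the subunit present in most resting cells, rose by 0.96. Nfkb1 reached 1336 ± 105 CPM from 277 ± 15.3 CPM.

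Inhibitors behaved differently from one another. Nfkbie, Nfkbid and Nfkbib rose by 1.20, 1.34 and 1.0, whereas Nfkbia, the classic feedback inhibitor, was at 520 ± 48.2 and 564 ± 85.4 CPM (log2 0.11 ± 0.09, adjusted p = 0.31) and Nfkbiz at 129 and 116 CPM. Tnfaip3, which encodes the ubiquitin editor A20, fell from 1333 ± 109 to 782 ± 83.9 CPM. Both values depended on the 0 h libraries. In sets B and C Nfkbia averaged 245 CPM at 0 h, and against those libraries it was called higher at 2 h (log2 1.19, adjusted p = 0.00045). Tnfaip3 ranged there from 410 to 694 CPM, none above its 2 h range of 694 to 879 CPM, so its fall was not seen against those libraries. The list as a whole then had 22 of 25 genes higher and 1 lower. Of the targets, Cd83 rose from 1.07 ± 0.295 to 46.1 ± 10.1 CPM and the survival gene Bcl2a1d from 0.531 ± 0.387 to 15.2 ± 4.52 CPM. Bcl2a1d has near-identical paralogs that share reads, so its level is uncertain. Icam1, Birc3 and Traf1 rose by 1.53, 1.42 and 1.19.

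Promoters of 2 genes of this group are shown because they hold matches to the NF-kB site, printed in capitals. They are the list members with the largest rise for which a match was found within 250 bases before a start site. Sequences are RefSeq windows on GRCm38.p6, read 5′ to 3′ on the gene's strand and matched by symbol. They are Nfkb2 at chr19:46304487-46304736 on the plus strand, the first of its 3 listed starts, and Rel at chr11:23770970-23771219 on the minus strand.
Nfkb2: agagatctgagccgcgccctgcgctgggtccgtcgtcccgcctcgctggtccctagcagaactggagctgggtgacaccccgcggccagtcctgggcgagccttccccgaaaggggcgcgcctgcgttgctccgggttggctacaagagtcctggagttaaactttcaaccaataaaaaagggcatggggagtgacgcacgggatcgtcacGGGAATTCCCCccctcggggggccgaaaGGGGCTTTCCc
Rel: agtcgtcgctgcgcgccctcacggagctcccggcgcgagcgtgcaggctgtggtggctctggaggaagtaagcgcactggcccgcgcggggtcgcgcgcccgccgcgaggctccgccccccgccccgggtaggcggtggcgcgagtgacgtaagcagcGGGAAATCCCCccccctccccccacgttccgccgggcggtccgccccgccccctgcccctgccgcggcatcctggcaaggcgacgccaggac
In Nfkb2 a pair of overlapping matches begins 39 and 38 bases before the start site and another begins 11 bases before it. In Rel an overlapping pair begins 92 and 91 bases before it. Of the 21 list members with a promoter entry 8 (38.1%) held at least 1 match within 300 bases, compared with 553 of 9105 tested genes (6.07%). A match is a description of letters, not a shown binding site, and the list was drawn up from known targets.

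Irf4, whose product scales with T cell receptor signal strength and pairs with BATF and JUN, rose from 18.3, 17.6, 17.5, 15.2 and 17.5 CPM at 0 h to 834, 843, 850, 790 and 555 CPM at 2 h. Replicate 5 was lowest at 2 h yet more than 30 times above the 0 h values. The log2 change was 5.48 ± 0.11 (SE, adjusted p = 1.4e-19). The NFAT and calcineurin list, which holds Irf4, had 5 of 14 genes higher and 5 lower, near the shares among all genes (31.8% and 33.7%). Nfatc1 rose by 1.11 ± 0.07 and the calcineurin regulator gene Rcan3 by 1.46 ± 0.10, while Nfatc2 fell by 1.0 and Ppp3cc, a calcineurin catalytic subunit gene, by 2.63 ± 0.12 on the log2 scale.

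Mir155hg, the host transcript of miR-155, had among the largest fold changes. It was at 0.118, 0.333, 0.0586, 0.237 and 0.179 CPM at 0 h and at 36.0, 48.9, 32.1, 45.5 and 25.2 CPM at 2 h, a log2 change of 7.56 ± 0.27 (SE, adjusted p = 2.7e-16). No 0 h library exceeded 1 CPM. The mature miRNA was not measured, since the libraries were made from polyadenylated RNA. Both arms are shown because they are the processed products of this transcript, with the seed, bases 2 to 8, in capitals. The locus is at chr16:84714143-84714165 for the 5p arm (RefSeq, GRCm38.p6, plus strand).
mmu-miR-155-5p: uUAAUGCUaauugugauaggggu
mmu-miR-155-3p: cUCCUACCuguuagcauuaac
The seeds of the arms differ, so they belong to different seed families. Mir17hg, host of the miR-17 cluster that supports T cell growth, rose from 19.4 ± 2.25 to 57.1 ± 6.91 CPM.

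Cytokine and chemokine genes were partly switched on. Of 18 tested 13 rose, 10 of them at least 2-fold, and 4 fell, and 12 of the 30 listed were too low to test. Xcl1, a chemokine for cross-presenting dendritic cells, was at 0.00, 0.00, 0.235, 0.829 and 0.477 CPM at 0 h and at 78.8, 31.1, 61.6, 41.1 and 73.3 CPM at 2 h. The log2 change was 7.56 ± 0.57 (SE, adjusted p = 2.3e-06). Tnfsf11, which encodes RANK ligand, rose by 6.86 ± 0.28, with 113 CPM in replicate 1 and 65.0 to 69.3 CPM in the others at 2 h. The inflammatory chemokine genes Ccl3 and Ccl4 rose by 5.67 ± 0.25 and 5.15 ± 0.20. At 6 h Xcl1 stood at 487 ± 71.8 CPM, Ccl3 at 169 ± 60.2 CPM and Ccl4 at 269 ± 68.5 CPM, all called higher than at 2 h (adjusted p = 1.4e-05, 0.00034 and 4.2e-05).

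Il2, the gene for the main T cell growth factor, had no read in any of the 5 libraries at 0 h (of 92316270 reads in all) and 20 to 33 reads per library at 2 h. Its level at 2 h was 2.11, 2.10, 1.65, 1.21 and 1.41 CPM. Against a floor of 3 counts over the 0 h group, 0.0325 CPM, this is at least 52.1-fold higher, counting error only. Tnf rose from 22 ± 6.99 to 63.4 ± 10.9 CPM, and Lif and Tnfsf14 rose by 2.09 and 3.22. Ifng did not rise: it fell from 2.86 ± 1.21 to 0.606 ± 0.497 CPM (log2 −2.24 ± 0.48, adjusted p = 0.00029). Against the 0 h libraries of sets B and C, where it averaged 1.11 CPM, its log2 change was −0.90 (adjusted p = 0.15), and with all 30 libraries of set A in the fit its adjusted p was 0.084. Tnfsf10, which encodes TRAIL, fell by 2.23 ± 0.13 on the log2 scale.

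Receptors for cytokines changed in both directions, with 15 of 30 tested receptor, JAK and STAT genes rising and 13 falling. Il2ra, the high-affinity IL-2 receptor chain CD25, was at 4.18, 4.56, 3.93, 4.02 and 5.66 CPM at 0 h and at 110, 128, 108, 115 and 101 CPM at 2 h. The 2 h values lie within a narrow range, and the lowest is over 10 times the highest 0 h value. The log2 change was 4.64 ± 0.11 (SE, adjusted p = 6.0e-20). Il12rb2, the inducible IL-12 receptor chain, rose by 3.57 ± 0.12, while its partner Il12rb1 fell by 2.51 on the log2 scale. Ifngr1 rose from 126 ± 16.8 to 616 ± 36.2 CPM. Il2rb rose by 0.95, and Il2rg, the common gamma chain, was at 420 and 448 CPM (log2 0.09, not called).

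Downstream, Stat5a and Stat5b rose by 1.23 and 1.14 and Jak2 by 1.06, whereas Jak3, the kinase bound to the common gamma chain, fell from 403 ± 28.6 to 115 ± 11.8 CPM. Stat2 fell by 0.98. Among feedback genes, Cish, an early STAT5 target, was at 1.65, 4.28, 3.11, 3.85 and 4.77 CPM at 0 h and at 17.2, 29.3, 28.3, 22.2 and 36.3 CPM at 2 h (log2 2.90 ± 0.24, SE, adjusted p = 1.4e-08). Replicate 1 was lowest at both times. Socs3 fell from 255 ± 54.3 to 50.9 ± 12.6 CPM, and Socs1 was at 52.1 ± 16.6 and 53.7 ± 6.77 CPM, with overlapping groups (adjusted p = 0.90). Against the 0 h libraries of sets B and C Socs1 was called higher (log2 0.39, adjusted p = 0.0074). Pim1, a STAT5-induced survival kinase gene, rose by 1.04, and Bcl2 fell by 1.24 ± 0.09.

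Sh2b3 (ENSMUSG00000042594), the adaptor gene deleted in the other genotype of the study, rose as well. Sh2b3 was at 74.9, 67.1, 76.1, 77.5 and 65.1 CPM at 0 h, and its 5 libraries at 2 h lay between 136.64 and 163.27 CPM with a median of 142.98 CPM (log2 1.01 ± 0.07, SE, adjusted p = 2.3e-11). In the knockout its reads averaged 15 ± 1.10 and 21.4 ± 5.95 CPM.

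Costimulatory and activation receptors mostly rose: 13 of 19 tested rose, 9 of them at least 2-fold, and 5 fell. Tnfrsf9 (4-1BB) went from a range of 3.51 to 6.13 CPM to one of 63.8 to 105 CPM, and Cd28 from one of 69.1 to 91.5 CPM to one of 310 to 446 CPM. Icos, a CD28 relative, rose from 29.9 ± 6.30 to 173 ± 43.3 CPM and Slamf1 from 7.90 ± 1.10 to 80.9 ± 19.3 CPM. Cd69, the common early activation marker, was already at 442 ± 53.7 CPM at 0 h and 552 ± 52.7 CPM at 2 h, with overlapping groups (log2 0.31 ± 0.08, adjusted p = 0.0020). In sets B and C it averaged 217 CPM at 0 h, against which its log2 change was 1.34 (adjusted p = 1.1e-10), whereas with all 30 libraries of set A in 1 fit its adjusted p was 0.25. Cd226 and Ly6a fell by 1.90 and 2.03 on the log2 scale.

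Inhibitory receptors and ubiquitin ligases of the same pathways rose too, 12 of 18 tested, with 8 at least 2-fold, while 3 fell. Pdcd1 (PD-1) was at 1.35, 1.43, 1.76, 2.07 and 1.07 CPM at 0 h and at 44.7, 29.2, 34.2, 27.7 and 44.9 CPM at 2 h (log2 4.55 ± 0.19, SE, adjusted p = 1.9e-15). Tigit was at 0.471 to 1.43 CPM at 0 h and 36.5 to 53.4 CPM at 2 h. For both, the lowest 2 h library is more than 10 times the highest 0 h library. Cblb, a ligase that restrains CD28 signalling, and Cd274 (PD-L1) rose by 1.55 and 1.53. Lag3 was at 0.632 and 1.17 CPM and was not called. At 6 h Pdcd1 was at 94.6 ± 12.5 CPM and Tigit at 26 CPM.

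The T cell receptor machinery itself went down in share. Of 31 tested genes 18 fell, 6 of them at least 2-fold, and 7 rose, with a median of −0.43. Cd8a was at 1435, 1322, 1211, 1106 and 1198 CPM at 0 h and at 442, 351, 397, 366 and 366 CPM at 2 h (log2 −1.71 ± 0.08, SE, adjusted p = 1.0e-14). Cd8b1 fell by 2.00 ± 0.07 on the log2 scale, Themis by 1.46 ± 0.08, and Prkcq, which encodes PKC-theta, by 1.23 ± 0.07. Thy1 fell from 1243 ± 46.4 to 314 ± 44.3 CPM. Cd247 (CD3-zeta) and Zap70 were not called, at 262 and 266 CPM and at 363 and 376 CPM. Lcp2, which encodes the adaptor SLP-76, and Bcl10 rose by 0.98 and 0.81.

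Of 24 naive and quiescence genes 13 fell and 7 rose, with a median log2 change of −0.24. Against the 0 h libraries of sets B and C 11 fell and 8 rose, with a median of −0.02. Igfbp4 was at 284, 351, 351, 339 and 311 CPM at 0 h and at 18.9, 21.2, 25.6, 20 and 24.0 CPM at 2 h (log2 −3.90 ± 0.09, SE, adjusted p = 7.9e-20). Dapl1, another marker of naive CD8 cells, fell by 3.29 ± 0.09 and Klf2, a quiescence and trafficking factor, from 1398 ± 335 to 554 ± 128 CPM. Klf2 averaged 913 CPM at 0 h in sets B and C, against which its log2 change was −0.73. Tcf7, the gene for the stem-like factor TCF-1, changed little, from 2058 ± 86.4 to 1662 ± 189 CPM (log2 −0.31 ± 0.08, adjusted p = 0.00096). Several genes of this list went up: Bach2, a repressor of effector genes, rose from a range of 94.2 to 124 CPM to one of 387 to 423 CPM, and Satb1, Il7r and Id3 rose by 0.84, 0.72 and 0.67.

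The largest falls outside the lists included Dtx1, Slc16a5, Ampd1, Sema4a and Lrrc75b. Dtx1, a NOTCH-linked ubiquitin ligase gene, was at 463, 559, 530, 534 and 541 CPM at 0 h and at 14.3, 22.3, 18.5, 19.4 and 21.1 CPM at 2 h, a log2 change of −4.78 ± 0.10 (SE, adjusted p = 2.6e-20). Sema4a fell from 317 ± 7.05 to 19.2 ± 1.05 CPM (log2 −4.05 ± 0.07). In sets B and C the 0 h mean was 527 CPM for Dtx1 and 389 CPM for Sema4a, and for Sema4a every library of those sets lay above the set A range. Against those libraries the log2 changes were −4.79 and −4.35. On the rising side outside the lists, Ramp3, a receptor activity-modifying protein gene, went from 2.35 ± 0.583 to 214 ± 35.4 CPM, Sema7a from 0.933 ± 0.673 to 87.9 ± 28.9 CPM and Tbc1d30 from 1.28 ± 0.607 to 59.5 ± 10.3 CPM. Ramp3 was lower again at 6 h, 57.3 ± 6.84 CPM (adjusted p = 2.1e-11 against 2 h).

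The next largest gains in CPM after that of Nr4a3, ranked among the same genes, were those of Srgn and Trp53inp1. Srgn, which encodes the granule proteoglycan serglycin, went from 232 ± 18.4 to 1201 ± 181 CPM, and Trp53inp1, a p53 target, from 282 ± 25.7 to 1156 ± 109 CPM. The largest losses in CPM, ranked in the same way, were those of Eef1a1, Junb and Rnf213. Eef1a1, a translation elongation factor gene, went from 16156 ± 1036 to 13278 ± 1405 CPM (log2 −0.29 ± 0.08, adjusted p = 0.0027).

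Effector genes and their regulators were mixed, with 7 of 18 tested rising and 7 falling. Nkg7, a cytotoxic granule gene, fell from 321 ± 16.3 to 37.1 ± 5.28 CPM (log2 −3.12 ± 0.09) and Runx3, a CD8 lineage factor, from 170 ± 9.73 to 96.5 ± 9.18 CPM. Bhlhe40, a regulator of cytokine output, rose from 6.52 ± 1.25 to 58.0 ± 6.29 CPM. Tbx21 (T-bet) rose from 2.94 ± 1.34 to 14.6 ± 6.09 CPM and Hif1a by 1.26 ± 0.08, while Id2 fell by 1.34 ± 0.10 on the log2 scale.

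Homing genes followed no single direction, with 9 of 16 tested falling and 5 rising. Itgb7, the beta chain of the gut-homing integrin, was at 929 to 1073 CPM at 0 h and 124 to 184 CPM at 2 h (log2 −2.78 ± 0.10). The gut chemokine receptor gene Ccr9 fell by 1.78 ± 0.09 and the LFA-1 genes Itgal and Itgb2 fell by 1.38 ± 0.07 and 1.28 ± 0.08. Ccr7, the receptor for lymph node entry, rose from 346 ± 26.6 to 786 ± 91.4 CPM.

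Type I interferon-stimulated genes, many of which encode antiviral proteins, were nearly all lower at 2 h. Of 48 tested 47 fell, 38 of them at least 2-fold, and none rose, beside 33.7% lower among all genes and 14.2% at least 2-fold lower. The list's median log2 change was −2.13. Mx1, an antiviral GTPase gene, was at 65.9, 87.8, 86.2, 88.4 and 146 CPM at 0 h and at 2.67, 2.92, 2.08, 2.54 and 5.81 CPM at 2 h (log2 −4.89 ± 0.33, SE, adjusted p = 6.2e-07). Slfn5 was at 219, 275, 249, 276 and 359 CPM and then at 8.23, 10.9, 13.4, 10.9 and 17.1 CPM (log2 −4.51 ± 0.21, adjusted p = 8.2e-09). Replicate 5 was highest at both times for both genes.

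The fall covered sensors, effectors and regulators alike. The RNA sensor genes Ifih1 (MDA5) and Ddx58 (RIG-I) fell by 1.65 and 1.23, the effector genes Ifit3, Oas2 and Rsad2 by 3.27, 3.78 and 3.69, the negative regulator Usp18 by 2.90, and the transcription factor genes Irf7 and Irf9 by 2.19 and 0.71 on the log2 scale. Outside this list, Rnf213, a large ubiquitin ligase gene, fell from 2361 ± 389 to 507 ± 65.3 CPM. Its log2 change was −2.22 with all 30 libraries of set A in 1 fit and −1.1 against the 0 h libraries of sets B and C. Slfn1 was the only tested member of the list not called, at 209 ± 15.1 and 215 ± 19 CPM. The interferon receptor genes moved little and in opposite directions, Ifnar1 up by 0.26 and Ifnar2 down by 0.60. Interferon gamma response and IRF genes were mixed, with 9 of 33 rising and 15 falling. H2-K1 rose by 0.28 ± 0.08, a call lost with upper-quartile scaling, and Cd274 by 1.53, whereas the immunoproteasome genes Psmb8, Psmb9 and Psmb10 fell by 1.01, 1.21 and 1.11. With sets B and C as the 0 h group, 13 of the 33 interferon gamma and IRF genes rose and 11 fell.

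The starting level of the interferon-stimulated genes differed between library sets. Their summed level was 6820 to 8800 CPM in the 5 set A libraries at 0 h, 4380 to 6280 CPM in the 6 of sets B and C, 2440 to 2710 CPM at 2 h and 2180 to 2480 CPM at 6 h. No 2 h library reached any 0 h library of any set. With sets B and C as the 0 h group 42 of the 48 fell and 1 rose, and the median log2 change was −1.43. Between 2 and 6 h, of 47 tested members 20 fell further and 7 rose, among them Slfn5 by 0.47 (adjusted p = 0.044), while Irf7 fell by another 1.17. The 6 h comparison uses the same 2 h libraries.

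**Figure D3:**
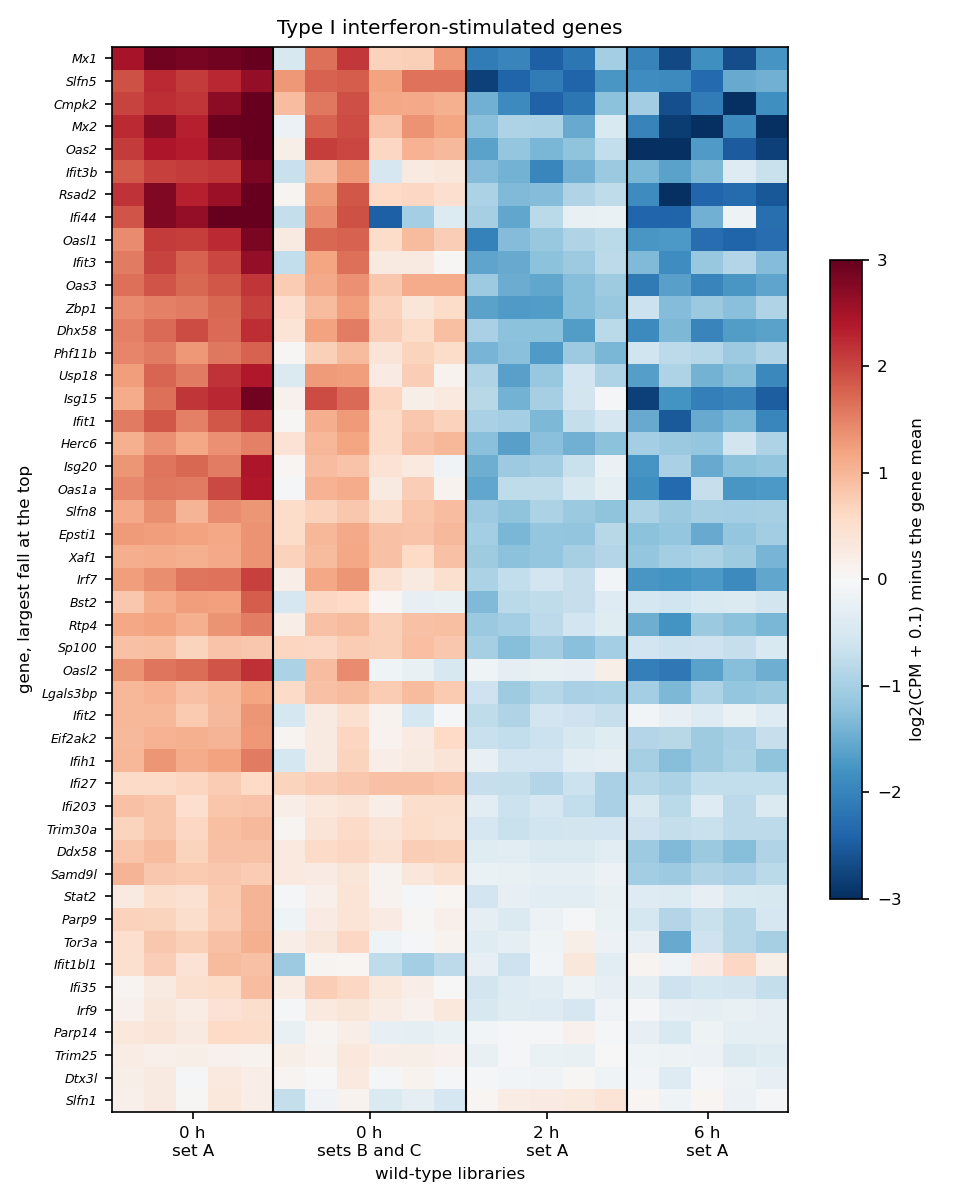
Rows are 47 of the 48 tested type I interferon-stimulated genes ordered by their log2 change, columns are wild-type libraries at 0 h (set A, then sets B and C), 2 h and 6 h, and colour is log2(CPM + 0.1) minus the gene's mean over these libraries. The genes shown from Mx1 to Dtx3l were all called lower at 2 h, the 0 h libraries of sets B and C are mostly paler than those of set A, and Slfn1 at the bottom did not pass the test.

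Promoters of 2 of these genes are shown because they hold 2 GAAA repeats separated by 2 bases, the core of the interferon-stimulated response element, in capitals on either strand. They are the list members with the largest falls that hold it before a listed start site. Slfn5 is at chr11:82951852-82952101 and Ifit3b at chr19:34607707-34607956, both on the plus strand (RefSeq, GRCm38.p6).
Slfn5: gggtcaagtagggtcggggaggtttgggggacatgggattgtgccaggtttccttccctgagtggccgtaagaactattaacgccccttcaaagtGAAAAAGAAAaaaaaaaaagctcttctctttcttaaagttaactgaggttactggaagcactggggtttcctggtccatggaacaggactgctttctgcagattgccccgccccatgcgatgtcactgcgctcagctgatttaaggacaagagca
Ifit3b: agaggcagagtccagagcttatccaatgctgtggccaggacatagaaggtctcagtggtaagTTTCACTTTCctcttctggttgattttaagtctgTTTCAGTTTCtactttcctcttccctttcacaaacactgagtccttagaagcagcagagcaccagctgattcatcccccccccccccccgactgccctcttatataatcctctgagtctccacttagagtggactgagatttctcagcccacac
In Slfn5 the match begins 155 bases before the start site. Ifit3b, which has close paralogs in the Ifit cluster, holds 2 matches, the farther one 188 bases before it. Of 36 list members with a promoter entry 18 (50.0%) held a match within 300 bases, compared with 338 of 9105 tested genes (3.71%). This motif was added to the search after the falls were seen, and the list was drawn up from known interferon-stimulated genes.

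Across all promoters the shares with a motif differed modestly between rising and falling genes. The NF-kB site was found for 24 of 214 genes at least 4-fold higher (11.2%) and for 20 of 317 at least 4-fold lower (6.31%), beside 6.07% of all. The AP-1 site TGANTCA was found for 11.2% of those higher, 9.15% of those lower and 5.76% of all. The E box CACGTG was found for 6.54%, 6.94% and 12.0%, in the same order, and the interferon core for 3.74%, 7.89% and 3.71%. The genes at least 4-fold lower include members of the interferon-stimulated list, so the 7.89% is not separate from that list's share. The cyclic AMP element TGACGTCA, which contains no AP-1 match, was found for 4.67%, 2.52% and 3.79%, the EGR site GCGTGGGCG for 2.34%, 1.58% and 1.48%, and the CArG box for 1.87%, 2.52% and 1.46%. All were searched on both strands. Protein-coding genes called at least 4-fold higher had a median span of 31.5 kb, those at least 4-fold lower 25.1 kb and all tested 23.6 kb (GENCODE M21 gene models, GRCm38).

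Growth genes began to move. Myc was at 210, 206, 212, 210 and 237 CPM at 0 h and at 539, 480, 451, 488 and 377 CPM at 2 h (log2 1.11 ± 0.08, SE, adjusted p = 3.1e-11), and its antagonists Mxi1 and Mxd1 rose too, by 2.13 ± 0.10 and 1.28 ± 0.12. Of 49 ribosome biogenesis genes, targets of MYC in many cells, 30 rose and 2 fell, with only Utp4 and Nop16 rising 2-fold or more. Ncl (nucleolin) rose from 753 ± 24.5 to 1129 ± 78.8 CPM and was at 1781 ± 181 CPM at 6 h. Of 78 cytosolic ribosomal protein genes, in contrast, 69 fell and 1 rose, each fall by less than 2-fold. Their median was −0.30, and −0.40 with upper-quartile scaling, and against the 0 h libraries of sets B and C 48 fell and 2 rose. Many of these genes have processed pseudogenes that can share reads.

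Metabolic lists held genes moving both ways. The amino acid transporter genes Slc7a1 and Slc7a5 rose by 1.46 ± 0.07 and 1.43 ± 0.09, and 16 of 30 amino acid and ATF4 genes rose while 8 fell. Of 26 glycolysis genes 9 rose and 15 fell: the hexokinase gene Hk2 rose from 2.38 ± 0.893 to 12.3 ± 2.82 CPM and the lactate exporter gene Slc16a3 by 2.14, while Eno1, Pkm and Pdk1 fell by 1.17, 0.64 and 2.05 and the glucose transporter genes Slc2a1 and Slc2a3 fell by 0.41 and 0.58. Of 23 nucleotide synthesis genes 7 rose and 11 fell: Prps1 and Umps rose by 1.26 and 1.13, and Cad fell from 175 ± 4.49 to 92.8 ± 14.5 CPM. At 6 h Cad was at 413 ± 59.7 CPM. Of 31 sterol and fatty acid genes 14 rose and 10 fell, led by Cyp51, Insig2 and Sc5d at 1.70, 1.51 and 1.19.

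Among survival genes, Bcl2l11, which encodes the death activator BIM, was at 82.1, 77.6, 68.8, 66.3 and 66.7 CPM at 0 h and at 590, 682, 593, 636 and 569 CPM at 2 h (log2 3.08 ± 0.08, SE, adjusted p = 2.2e-19). The protective genes Bcl2l1 (BCL-XL) and Mcl1 rose by 1.37 and 0.27 and Fas rose by 1.57. In the cell cycle list 13 of 31 rose and 12 fell: the CDK inhibitor gene Cdkn1a rose from 2.40 ± 1.59 to 20.1 ± 4.28 CPM, and Ccnd3, Ccne1 and E2f2 fell by 1.42, 1.78 and 2.29. Mki67 was at 18.1 and 11.7 CPM and was not called.

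Of 13 tested genes of MAP kinase feedback 7 rose and 3 fell, with a median log2 change of 0.57. Spry1 and Spry2, which encode Sprouty inhibitors, rose by 4.10 ± 0.29 and 4.41 ± 0.58 and the JNK phosphatase gene Dusp16 by 3.06 ± 0.11. Dusp1 was at 344 to 618 CPM at 0 h and 38.6 to 54.1 CPM at 2 h, a log2 change of −3.37 ± 0.17, and Dusp2, Dusp5 and Dusp10 were not called. Among genes that control mRNA decay 11 of 20 rose and 3 fell. Those rising included Zc3h12d, Rc3h1 and Zc3h12a, by 1.70, 0.81 and 0.83, and those falling were the zinc finger genes Zfp36 and Zfp36l2, with Tob1.

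**Figure D4:**
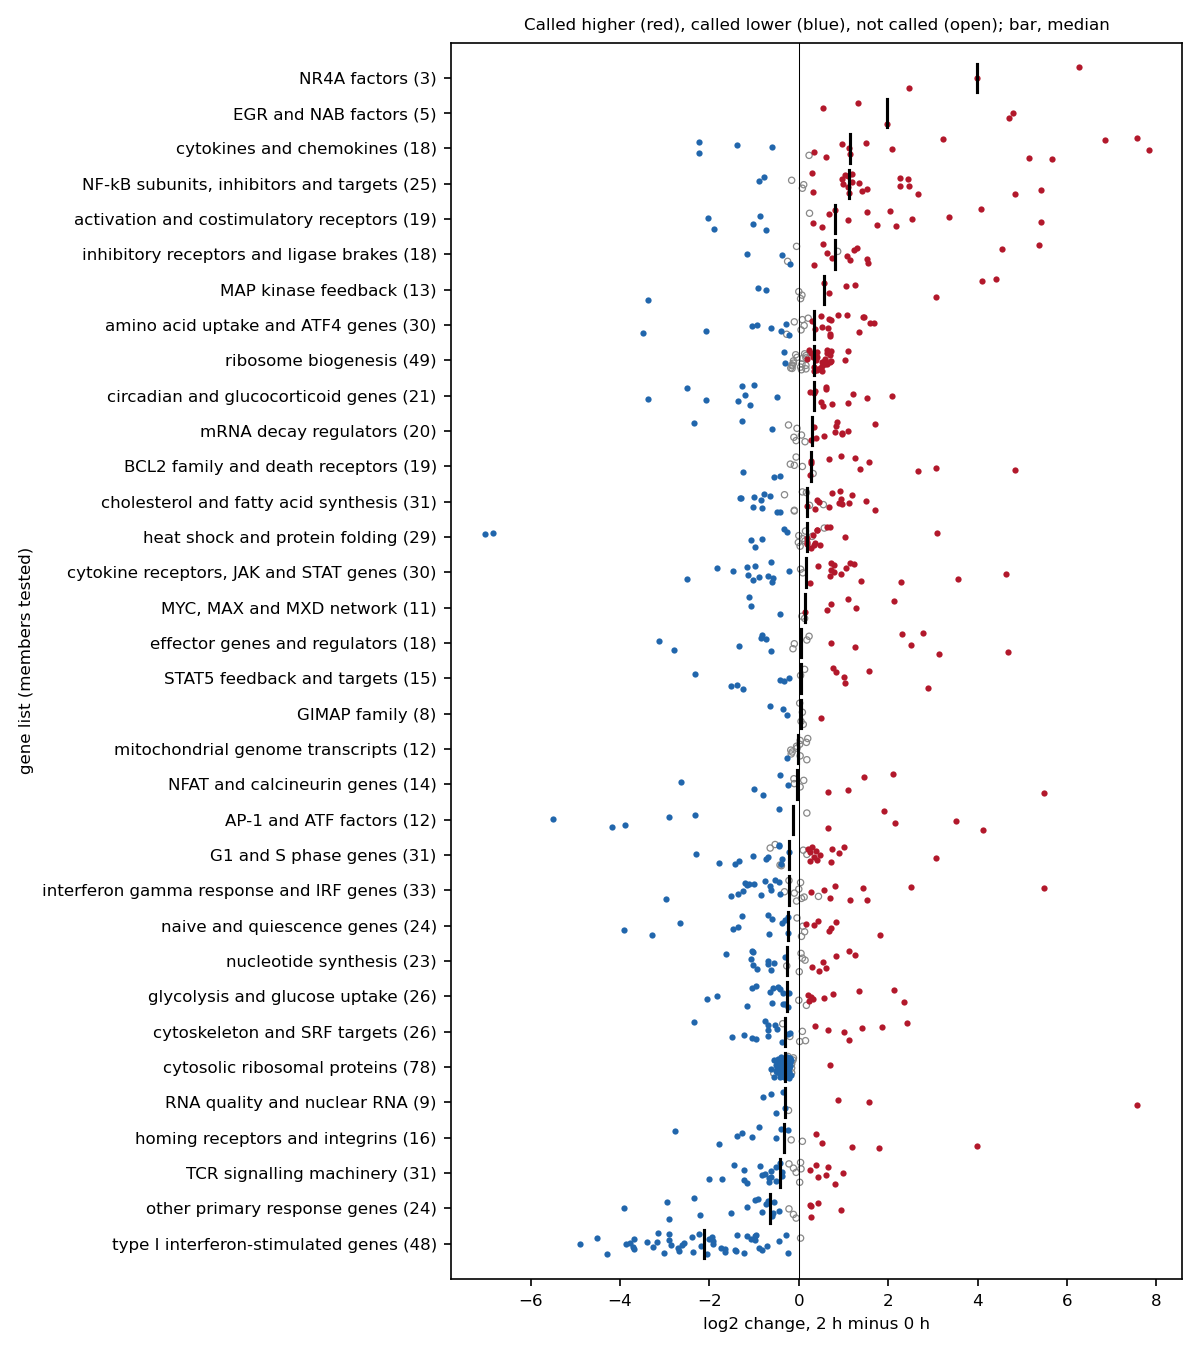
Each point is a tested member of a gene list (y axis, with the number tested) placed at its log2 change from 0 h to 2 h (x axis). Red points were called higher, blue lower and open points were not called, and the black bar is the list's median. The NR4A and EGR lists lie at the top with medians of 3.99 and 1.98, the type I interferon-stimulated genes at the bottom with −2.13, and most other lists span both directions.

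The same contrast was measured in 10 Sh2b3-/- libraries of set A, none of them shared with the wild-type comparison. Of 12797 genes tested there 3829 (29.9%) were called higher at 2 h and 3922 (30.6%) lower. Of the 1133 wild-type genes called at least 2-fold higher, 1104 were tested in the knockout and 995 were called higher there. Of the 1800 at least 2-fold lower, 1727 were tested and 1528 were called lower. None was called in the opposite direction. Across 12390 genes tested in both, which are not independent replicates, Pearson's r between the log2 changes was 0.941 and the slope of knockout on wild type 0.94.

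For single genes, the knockout log2 changes were 6.82 ± 0.48 (SE) for Nr4a3, 5.13 ± 0.41 for Egr2, 4.61 ± 0.43 for Irf4, −4.63 ± 0.40 for Jun, −4.83 ± 0.15 for Mx1 and 3.10 ± 0.18 for Bcl2l11. The interferon-stimulated list had a knockout median of −2.07 and the NF-kB list one of 1.30. In the direct test of whether the 2 h change differed between genotypes, edgeR called none of 13809 genes (0.0%). Of these, 949 had an unadjusted p under 0.05, and the median standard error was 0.20. That median does not describe every list. At 2 h the NR4A genes summed to 1380 to 6520 CPM in the knockout and 2160 to 3410 CPM in wild type. For the EGR and NAB list these sums were 907 to 3640 CPM and 1420 to 2290 CPM. DESeq2 called 5, which were Aff1, Atg2a, Cul7, Pea15a and Tex2, chosen here after their values were seen. On simulated data the edgeR test of this difference recovered 76% of genes differing by 2 and 63% of those differing by 1 on the log2 scale. The lack of calls therefore does not show that the responses were equal. For Sh2b3 the change was 0.50 ± 0.17 smaller in the knockout on the log2 scale (unadjusted p = 0.0081, adjusted p = 0.64).

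**Figure D5:**
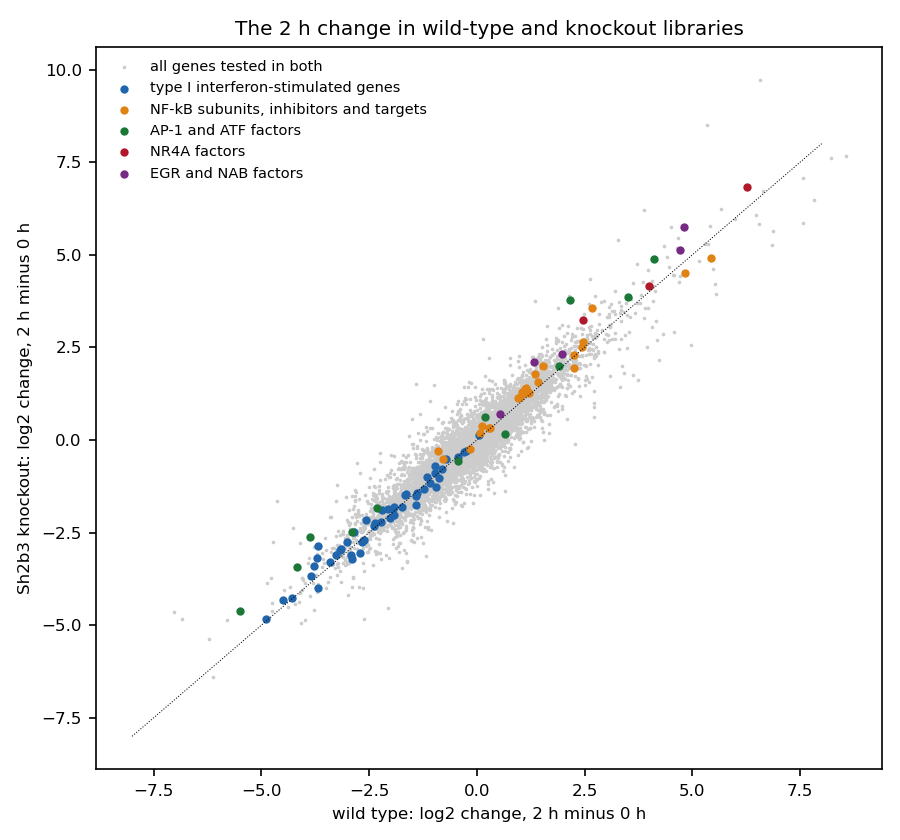
Each point is 1 of the 12390 genes tested in both genotypes, with its log2 change from 0 h to 2 h in wild type on the x axis and in the Sh2b3 knockout on the y axis. The dotted line marks equal change. Coloured members of the NR4A, EGR, NF-kB, AP-1 and type I interferon lists lie along it, from Mx1 at −4.89 and −4.83 to Nr4a3 at 6.27 and 6.82.

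Markers of other cell types were checked in the same libraries. Of 9 tested B cell markers 5 fell and none rose, and their summed level was 829 to 959 CPM at 0 h and 272 to 339 CPM at 2 h, mostly Ighm at 796 ± 43.7 and 282 ± 24.6 CPM. Of 7 tested gamma delta T cell markers 6 fell and none rose, with sums of 431 to 531 CPM and 240 to 278 CPM, mostly Trdc. Il17a, of the same list, had no reads. Of 5 tested CD4 and regulatory T cell markers 3 rose and 1 fell, with Ikzf2 from 85.2 ± 6.31 to 272 ± 50.1 CPM, while Cd4 stayed at 0.178 and 0.0526 CPM. Dendritic cell and MHC class II markers summed to 145 to 238 CPM and 68.6 to 92.5 CPM, mostly Bst2, which is also interferon-stimulated and fell by 2.06. It was the only one of 8 tested markers of that list called lower, and Zbtb46, Itgax and Xcr1 rose by 3.61, 1.85 and 1.20, with Zbtb46 going from 0.787 ± 0.637 to 9.69 ± 1.24 CPM. The sums for NK cells were 5.56 to 13.6 CPM and 3.38 to 4.64 CPM, for monocytes 10.4 to 16.5 CPM and 5.21 to 7.52 CPM, for erythroid cells 15.3 to 61.5 CPM and 10.7 to 40.8 CPM, and for platelets 3.22 to 4.91 CPM and 1.65 to 4.16 CPM. The part of these cell types in the changes above was not tested.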

How the data were processed

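PolyA RNA of wild-type and Sh2b3-/- CD8 T cells was sequenced. The authors deposited 1 table of raw read counts for 55414 genes. Per the submitters' processing notes it was made with FastQC 0.119.9, STAR 2.7.9a, SAMtools, Picard 2.42.2 and featureCounts 2.0.1 (Subread) on GRCm39; the strand setting is not given in the sources used here, so overlapping and antisense genes are uncertain. Counts of 10 wild-type libraries were tested with edgeR 4.0.16 (limma 3.58.1, R 4.3.3): quasi-likelihood, robust, TMM, filterByExpr with a minimum count of 10, Benjamini-Hochberg adjusted p under 0.05 ("called"). On simulated data the test recovered 94% of genes changed by 2 and 74% of those changed by 1 on the log2 scale, with 9 false calls among 12669 genes. Far fewer genes were changed in the simulation than were called in the data, so it cannot give the number of false calls among the 8308. DESeq2 1.42.0, other scalings, filters, 0 h libraries and leaving out each library were alternatives. Symbols were paired with 52013 IDs, holding 99.6% of reads. Genes were named by rule: the 12 largest rises and falls at a mean of at least 10 CPM, the 8 largest gains and losses, up to 5 members per list by smallest adjusted p, and fixed activation genes, leaving out predicted genes, pseudogenes and receptor segments. Genes named outside it, as examples of a list, were chosen after their values were seen. The 44 lists, 10 of them markers, were chosen with earlier results of these data known. The interferon motif, and list counts against other 0 h libraries, were added later.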

Additional observations from a re-analysis of the deposited data

Results flagged for a closer look

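In 10 of 90 groups of 5 libraries looked at (11.1%), 1 library lay far from the other 4. Far means a gap over 0.71 of the group's range, which chance gives in about 1 in 20 independent groups. The groups are genes measured in the same libraries, so they are not independent and the shares cannot show an excess. At 2 h, Tnfsf11 was at 113 CPM in replicate 1 and 65.0 to 69.3 CPM in the others, and Il7r at 697 CPM in replicate 1 and 467 to 515 CPM in the others. Ramp3 was at 276 CPM in replicate 4 at 2 h, beside 187 to 208 CPM. Replicate 5 at 2 h had the lowest Irf4, 555 CPM beside 790 to 850 CPM, and the highest Mx1, 5.81 CPM beside 2.08 to 2.92 CPM.

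At 0 h, replicate 5 stood apart for Mx1, at 146 CPM beside 65.9 to 88.4 CPM, and for Myc, at 237 CPM beside 206 to 212 CPM. Replicate 4 at 0 h stood apart for Irf4, at 15.2 CPM beside 17.5 to 18.3 CPM, and for Tbc1d30, at 2.37 CPM beside 0.953 to 1.06 CPM. Lrrc75b was at 27.7 CPM in replicate 2 at 0 h, beside 30.7 to 31.9 CPM. None of these libraries joined the range of the other time point.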

How the results depend on the processing

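The count of 8308 called genes lay between 7926 and 8895 over the other settings, 7979 and 8330 without 1 library, except that a test against a change of 1.5-fold called 3589. The share of calls that were higher was 48.6%, and 41.2% to 51.2% over these settings. Of 4618 pairs of a named gene and a setting, 4544 kept direction and call, 49 lost the call, 15 gained it and 10 reversed. Against the 0 h libraries of sets B and C the log2 changes of Gimap7 (0.05), Gimap1 (−0.15), Slc4a1 (0.71), Alas2 (0.08) and Hbb-bs (0.05) reversed. With upper-quartile scaling those of Gimap1 (−0.00) and Socs1 (−0.07) did. Without 1 library Hbb-bs ranged from −0.54 to 0.04 and Socs1 from −0.12 to 0.19. Of these genes only Gimap7 was called in the comparison of the text (−0.36). Between 6 and 2 h, 69.2% of calls were higher with library totals and no TMM. The cause was not tested.

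For the difference between genotypes, where edgeR called 0 genes, DESeq2 called 5, and leaving out 1 library gave 0 to 3, the 3 being Atg2a, Ezr and Pea15a without wild-type replicate 5 at 2 h. A replicate block pairing library numbers 10 apart called 8543 genes for wild type and 2, Fam102b and Vps37b, for the difference. The deviations of libraries 10 apart correlated by 0.0394 to 0.135, with 2 of 5 pairs at or under 0.1. No label pairs the libraries, and the main test left them unpaired. Each of the 5 libraries at 2 h, and 4 of the 5 at 0 h, nevertheless correlated best with the one 10 apart, a hint from the data and not from the design.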

Other observations

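Genes of the clock and of the glucocorticoid response were all called among the 21 tested, where 12 rose and 9 fell. Against the 0 h libraries of sets B and C 10 rose and 9 fell, and with all 30 libraries of set A in 1 fit 9 of 22 rose and 9 fell. The glucocorticoid targets Sgk1, Ddit4 and Tsc22d3 fell from 216 ± 12.2 to 38.3 ± 3.55 CPM (SD, n = 5 each), from 62.0 ± 17.2 to 14.8 ± 1.31 CPM and from 297 ± 47.5 to 124 ± 22.3 CPM. Klf9, also a target, rose from 3.81 ± 0.845 to 16.4 ± 1.66 CPM. Among clock genes Dbp fell by 1.35 ± 0.15 (SE) on the log2 scale, while Nr1d2, Cry1 and Clock rose by 1.22 ± 0.09, 1.11 ± 0.08 and 0.74 ± 0.09. The hour of sampling is not used here, so time of day was not tested.

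Of 26 cytoskeleton genes and SRF targets 14 fell and 7 rose. Vim (vimentin) fell from 369 ± 18.6 to 72.4 ± 14.5 CPM, Flna (filamin A) from 1356 ± 51.1 to 482 ± 61.2 CPM, and Coro1a (coronin 1A) from 1986 ± 114 to 968 ± 101 CPM. The thymosin gene Tmsb4x fell from 2593 ± 116 to 989 ± 47.4 CPM. Vcl (vinculin) rose from 1.80 ± 0.385 to 9.77 ± 1.23 CPM, and Tpm4 and the tubulin genes Tubb2a and Tubb2b rose by 1.02 ± 0.07, 1.41 ± 0.12 and 1.87 ± 0.19 on the log2 scale. Of the 8 GIMAP GTPase genes, regulators of lymphocyte survival, Gimap4 rose by 0.49 and Gimap5, Gimap7 and Gimap8 fell by 0.26, 0.36 and 0.65, Gimap7 no longer against the 0 h libraries of sets B and C (log2 0.05).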
